A study of Homo sapiens with 30 samples.

Results

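The C/D box small nucleolar RNA (snoRNA) genes are those with a SNORD symbol, and the 14 described here were chosen by level. A gene was a member if its mean was at least 0.5 RPKM (a read count divided by gene length and by sequencing depth) over all 30 libraries. Of 57992 genes in the table, 278 had a SNORD symbol in GENCODE 29, of which 14 met the rule and 264 did not. The members were SNORD3A, SNORD3B-1, SNORD3B-2 and SNORD3C, which encode U3, and SNORD10, SNORD13, SNORD15B, SNORD17, SNORD33, SNORD89, SNORD91A, SNORD91B, SNORD94 and SNORD97. The values of members just inside the minimum were 0.679 for SNORD91A, 0.596 for SNORD91B and 0.577 RPKM for SNORD89. Those just outside were 0.454 for SNORD14A, 0.407 for SNORD46 and 0.344 RPKM for SNORD12B.

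RNA-Seq was done on HCT116, a human colorectal carcinoma line, and Ramos, a human Burkitt lymphoma line with a MYC translocation, giving 3 replicates in each of 10 groups. Omomyc is a MYC-derived protein that binds MAX and competes with MYC for its DNA sites. HCT116 cells were untreated or were given 2 or 10 μM Omomyc for 6 or 24 h, and Ramos cells were untreated or were given 0.5 or 2.5 μM for 6 or 24 h. Total RNA depleted of rRNA was sequenced with a strand-specific kit, and the authors deposited RPKM. The labels give the lower HCT116 dose as 2 μM, and the methods of the study as 2.5 μM. The labels of the 24 h groups hold both 24 h, in the title, and 4 h, in a tag, and 24 h is used here. HCT116 cells were treated in the presence of ProteoJuice, a protein delivery reagent. Whether untreated HCT116 cells also received the reagent, and whether any Ramos cells did, is not given in the sources used here, so in HCT116 cells Omomyc and the reagent cannot be told apart. Nothing states that the replicates were separate cultures, so the p-values may measure technical spread only.

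C/D box snoRNAs bind the proteins fibrillarin, NOP56, NOP58 and SNU13 and, for the most part, guide ribose methylation of rRNA and spliceosomal RNA. U3 does not guide methylation but pairs with pre-rRNA and is needed for the cleavages that yield the small subunit rRNA. In human cells the U3 genes and SNORD13 are transcribed from promoters of their own, whereas most of the others are cut from introns of host genes, many of which encode proteins of translation. Ribosome production is a process that MYC is known to raise.

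The sequences below are those of the members on which the results turn, as RNA-coding DNA from the shortest GENCODE 29 transcript of each gene (GRCh38), 5′ to 3′. Capitals mark the first TGATGA, the core of box C, and the last CTGA, box D, where the script found them. SNORD3A stands for the U3 genes. Its own gene spans chr17:19188016-19188714 on the plus strand (699 bases), and the transcript printed has 217 bases. SNORD17 (chr20:17962710-17962946, minus strand), SNORD97 (chr11:10801467-10801608, minus strand), SNORD10 (chr17:7576811-7576952, plus strand), SNORD33 (chr19:49490615-49490699, plus strand) and SNORD94 (chr2:86135870-86136006, plus strand) lie within host genes.
SNORD3A: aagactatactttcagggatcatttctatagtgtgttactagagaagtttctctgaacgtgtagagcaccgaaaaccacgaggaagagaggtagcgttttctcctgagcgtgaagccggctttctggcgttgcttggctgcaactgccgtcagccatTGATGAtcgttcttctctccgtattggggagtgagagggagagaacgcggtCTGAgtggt
SNORD17: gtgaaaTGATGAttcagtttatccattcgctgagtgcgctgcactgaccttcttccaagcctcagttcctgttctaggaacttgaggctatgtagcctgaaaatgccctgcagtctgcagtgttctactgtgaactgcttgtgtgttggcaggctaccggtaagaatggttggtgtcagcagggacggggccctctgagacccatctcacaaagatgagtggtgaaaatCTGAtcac
SNORD97: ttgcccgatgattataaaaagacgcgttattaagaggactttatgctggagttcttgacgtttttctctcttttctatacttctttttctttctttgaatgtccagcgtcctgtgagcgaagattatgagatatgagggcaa
SNORD10: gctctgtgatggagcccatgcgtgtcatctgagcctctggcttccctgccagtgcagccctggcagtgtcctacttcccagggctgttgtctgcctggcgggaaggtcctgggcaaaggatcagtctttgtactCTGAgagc
SNORD33: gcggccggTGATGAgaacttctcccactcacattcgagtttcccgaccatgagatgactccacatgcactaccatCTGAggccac
SNORD94: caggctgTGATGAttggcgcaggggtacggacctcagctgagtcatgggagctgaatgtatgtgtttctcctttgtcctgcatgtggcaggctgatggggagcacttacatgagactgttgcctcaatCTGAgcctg

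TGATGA was present on the transcribed strand of 10 of the 14 members (71.43%) and 215 of the 278 SNORD genes (77.34%). CTGA was present in the last 20 bases of 13 of the 14 members (92.86%) and 268 of the 278 SNORD genes (96.4%). In the 147 genes of the other main class, the H/ACA box (SNORA) genes, the shares were 3.4% and 8.84%. SNORD97, printed above, held neither string in these places. The match is of letters only, on the transcribed strand, and CTGA and TGATGA can overlap by their ends. The shortest transcript of each of the 4 U3 genes was 217 bases. Counted from 1 at the 5′ end of that transcript, SNORD3B-1 and SNORD3B-2 were identical to each other and differed from SNORD3A by A78C, and SNORD3C differed from SNORD3A by G108A. Reads from the 4 copies can therefore be split between them only at these bases or outside the shortest transcript, and the value of each U3 gene alone is uncertain. SNORD91A and SNORD91B shared 76.84% of 95 aligned bases.

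Members were unevenly spread over gene length. Of the 205 SNORD genes of at most 90 bases, 1 was a member (SNORD33, 85 bases) and 182 were listed at 0 in all 30 libraries. Of the 49 genes of 91 to 110 bases, 1 was a member (SNORD13, 104 bases) and 35 were listed at 0. Of the 10 longer genes of up to 150 bases 5 were members, and of the 14 above 150 bases 7 were members and 5 were listed at 0. In all, 225 of the 278 genes were listed at 0 throughout. Among them were SNORD118 (134 bases), the U8 snoRNA needed for large subunit rRNA maturation, and SNORD14B, SNORD14C and SNORD14D. SNORD14E had a mean of 0.0488 RPKM. Since genes that growing cells need were at 0, a value of 0 here may be a failed estimate, and it is given below as a listed value. RNA was isolated from HCT116 cells with a column kit of a type that recovers short RNAs poorly, and values of genes shorter than a sequenced fragment depend on the counting tool. The part of either in the values was not tested.

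**Figure D1:**
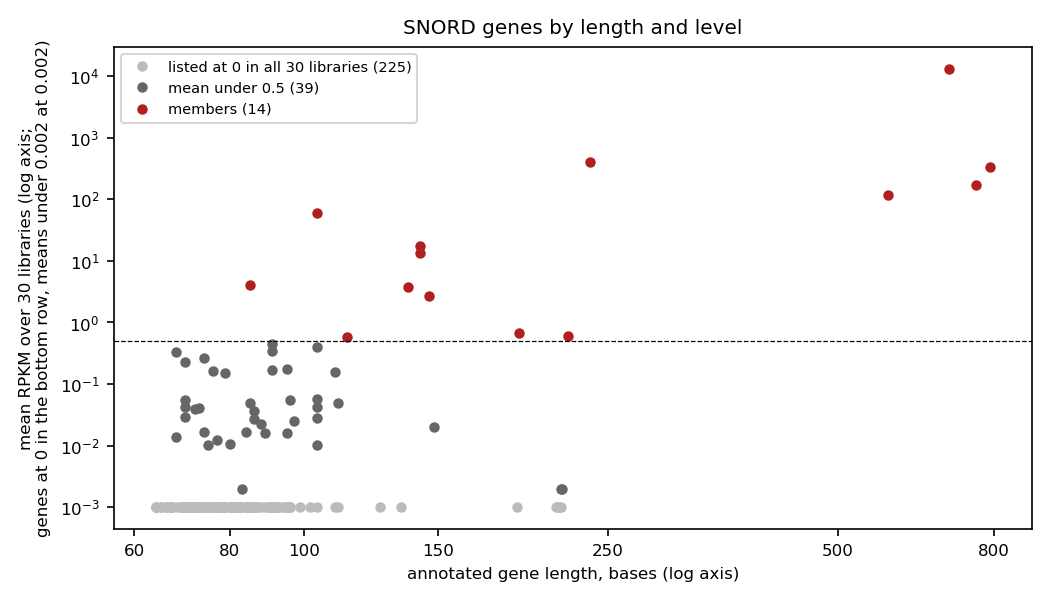
Annotated gene length in bases (x, log axis) and mean RPKM over the 30 libraries (y, log axis) of the 278 SNORD genes, with the minimum of 0.5 as a dashed line. The 14 members lie above the line, and the 225 genes listed at 0 in every library form the bottom row.

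The identity of the lines and a few facts of the libraries bear on the values. The HCT116 markers EPCAM, KRT8, KRT18 and CDH1 ranged from 11.4 to 812 RPKM in HCT116 and from 0 to 0.668 RPKM in Ramos libraries, while VIL1 was near 0 in both. The 5 B cell markers ranged from 40.9 to 635 RPKM in Ramos and from 0 to 0.414 RPKM in HCT116 libraries. RPKM summed to between 593633 and 1051041 per library, and the highest sum was that of replicate 3 of HCT116 cells given 10 μM for 6 h. In that library RN7SL1, the RNA of the signal recognition particle, was at 207392 RPKM, and SNORD genes made up 0.498% of the sum against 2.74% and 4.03% in the other replicates of the group. Calls in that group are given with and without it. The number of reads per library is unknown. These are bulk samples, so a lower number of expressing cells and a lower amount of RNA per cell cannot be told apart.

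SNORD3A was by far the most abundant member, with a mean of 13159 RPKM over the 30 libraries. Its values were 8804, 14364 and 7066 RPKM in untreated HCT116 cells and 17925, 16199 and 11162 RPKM in untreated Ramos cells. After 24 h with 2 μM Omomyc the HCT116 values were 19756, 14486 and 20551 RPKM, and after 6 h they were 9897, 5669 and 11052 RPKM. The 24 h values lay above all untreated values, the lowest just so, while the 6 h values overlapped them. With limma on log2(RPKM + 0.5), on which scale all log2 differences are given, SNORD3A rose by 0.91 ± 0.241 (SE) at 24 h (adjusted p = 0.0239) and differed by -0.18 ± 0.307 at 6 h (adjusted p = 0.663). Between the times, SNORD3A was higher at 24 h than at 6 h by 1.08 ± 0.267 (adjusted p = 0.0117). The rise against untreated cells was past the threshold in all 3 scalings tried and was not past it without replicate 1 or 3 of the treated or of the untreated cells (adjusted p 0.0629 to 0.0822). This call was lost in 8 of 16 alternative settings, those with a single library left out among them.

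With 10 μM Omomyc the SNORD3A values were 20905, 30967 and 4987 RPKM at 6 h and 6124, 9061 and 15627 RPKM at 24 h. The lowest 6 h value is that of the library that stands apart. At 24 h the difference from untreated cells was -0.01 ± 0.348, and at 6 h it was 0.62 ± 0.645 (adjusted p = 0.498). Without that library SNORD3A was higher at 6 h by 1.401 ± 0.293 (adjusted p = 0.00496). In Ramos cells, the difference ranged from -0.41 ± 0.176 (2.5 μM, 24 h, adjusted p = 0.222) to -0.17 ± 0.162 (0.5 μM, 24 h, adjusted p = 0.892) over the 4 treatments. Since 3 libraries against 3 cannot give an exact permutation p under 0.1, single values were not called by that test.

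The minor U3 genes set the lines apart. SNORD3B-2 had values of 21.8, 20.5 and 18.5 RPKM in untreated HCT116 and 1029, 1005 and 532 RPKM in untreated Ramos cells. SNORD3B-1 had 11.7, 13.1 and 13.7 RPKM and 591, 340.5 and 390.2 RPKM. Both were lower in HCT116 cells, with no overlap, and the log2 difference was -5.31 ± 0.247 for SNORD3B-2 (adjusted p = 7.65e-07) and -5.01 ± 0.193 for SNORD3B-1 (adjusted p = 2.8e-07). SNORD3C was at 163, 185 and 77.5 RPKM in HCT116 and 102, 75.5 and 62.1 RPKM in Ramos cells, which was not past the threshold (0.76 ± 0.341, adjusted p = 0.0716). With 10 μM at 6 h SNORD3C differed from untreated HCT116 cells by 0.29 ± 0.839 (adjusted p = 0.817), and without the library that stands apart it was higher by 1.34 ± 0.378 (adjusted p = 0.0182). SNORD3B-1 and SNORD3B-2 together made up 0.121% to 1.08% of the summed RPKM of the U3 genes in HCT116 libraries and 6.02% to 8.25% in Ramos libraries. The sum of the 4 genes, computed as an alternative chosen after seeing the data, was lower in untreated HCT116 than in untreated Ramos cells (-0.72 ± 0.285, adjusted p = 0.0483), and it rose by 0.90 ± 0.241 after 24 h with 2 μM (adjusted p = 0.0244).

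In Ramos cells SNORD3B-1 was the member that changed. After 6 h its values were 219, 279.6 and 254 RPKM with 2.5 μM and 250.3, 191 and 236 RPKM with 0.5 μM, all below the lowest untreated value. It fell by 0.78 ± 0.180 (adjusted p = 0.0133) and 0.93 ± 0.181 (adjusted p = 0.0067) on the log2 scale, and at 2.5 μM the call was lost without replicate 1 of the treated cells (adjusted p = 0.0524). The values after 24 h were 419, 326 and 308 RPKM with 2.5 μM and 378, 353 and 422 RPKM with 0.5 μM, which overlapped the untreated values. In HCT116 cells SNORD3B-1 was between 11.7 and 13.7 RPKM in untreated cells and fell at 24 h by 0.39 ± 0.123 with 2 μM (adjusted p = 0.0439) and 0.27 ± 0.0863 with 10 μM (adjusted p = 0.0381). Both calls were lost without single libraries, the first without any of 5 of the 6 and the second without any of 4 of the 6. Over all 15 alternative settings the first was lost in 9 and the second in 8. All treatments of a line are compared with the same 3 untreated libraries, so these comparisons are not independent. SNORD3B-1 shares its sequence with SNORD3B-2, for which the differences in Ramos cells were -0.51 ± 0.231 and -0.37 ± 0.237 at 6 h, not past the threshold.

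**Figure D2:**
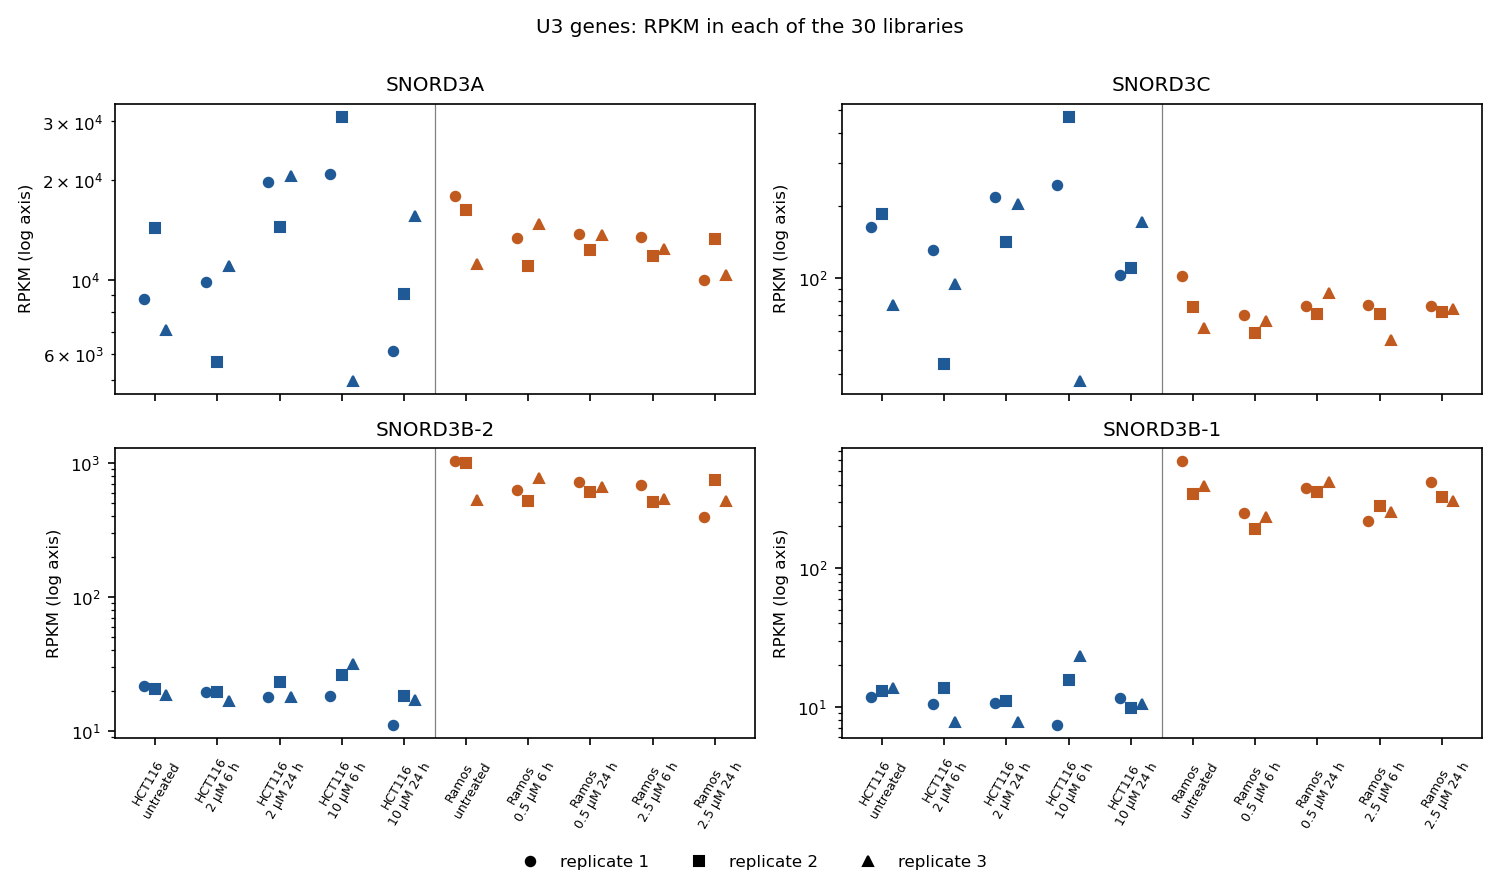
RPKM (log axis) of the 4 U3 genes in each of the 30 libraries, by group, with the marker giving the replicate number and the colour the line. SNORD3A lies between 4987 and 30967 RPKM in both lines, while SNORD3B-1 and SNORD3B-2 lie at or below 31.6 RPKM in HCT116 and at or above 191 RPKM in Ramos cells.

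SNORD13, which helps direct acetylation of the small subunit rRNA and is transcribed on its own on chromosome 8, was the member with the steadiest rise in HCT116 cells. Its values were 54.9, 49.5 and 46.2 RPKM in untreated cells, 116, 107 and 133 RPKM after 6 h and 158, 122 and 152 RPKM after 24 h with 2 μM. With 10 μM they were 144, 166 and 41.2 RPKM after 6 h and 138, 183 and 194 RPKM after 24 h. In 3 of the 4 treated groups every library lay above every untreated one, and in the 10 μM, 6 h group the library that stands apart lay below them. SNORD13 rose by 1.23 ± 0.0937 (2 μM, 6 h, adjusted p = 3.02e-05), 1.51 ± 0.0973 (2 μM, 24 h, adjusted p = 7.5e-05) and 1.75 ± 0.117 (10 μM, 24 h, adjusted p = 1.54e-05). The call held in these 3 comparisons under each of 15 alternative settings. With 10 μM at 6 h the difference was 0.99 ± 0.469 (adjusted p = 0.149), and without the library that stands apart SNORD13 was higher by 1.62 ± 0.0886 (adjusted p = 1.49e-05).

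RNY3, a Y RNA that is not a snoRNA and was chosen after its values were seen, has 102 bases, close to the 104 of SNORD13. Its values were 65.5, 88.8 and 71.0 RPKM in untreated HCT116 cells and 126, 277 and 235 RPKM after 6 h with 2 μM, a rise of 1.43 ± 0.246 (adjusted p = 0.00139). At 24 h RNY3 differed from untreated cells by 0.45 ± 0.180 with 2 μM (adjusted p = 0.0901) and 0.27 ± 0.274 with 10 μM (adjusted p = 0.485). Genes of at most 110 bases other than SNORD genes, RNY3 included, summed to between 107 and 137 RPKM in untreated HCT116 libraries. Their sums ranged from 204 to 369 RPKM after 6 h with 2 μM, from 121 to 178 RPKM after 24 h with 2 μM and from 119 to 187 RPKM after 24 h with 10 μM. After 6 h with 10 μM they were 347, 280.5 and 129 RPKM, the last in the library that stands apart. RNY3 made up 65.5 of 107 RPKM in replicate 1 of untreated cells and 277 of 369 RPKM in replicate 2 after 6 h with 2 μM. The sums are therefore not a measure separate from RNY3. How far the recovery of short RNAs moves with SNORD13 was not tested. SNORD13 lies opposite TTI2, and whether counting used the strand is not given in the sources used here.

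SNORD33, one of several snoRNAs in introns of RPL13A and a guide of rRNA methylation, was listed at 0 in all 3 untreated HCT116 and all 15 Ramos libraries. Its values in HCT116 cells were 6.40, 23.2 and 16.2 RPKM after 6 h and 11.7, 3.52 and 5.90 RPKM after 24 h with 2 μM, and 22.7, 3.22 and 0 RPKM after 6 h and 6.74, 11.3 and 11.6 RPKM after 24 h with 10 μM. Thus 11 of the 12 treated HCT116 libraries held a value above 0, and the library that stands apart did not. SNORD33 passed the filter of the comparisons with untreated cells through the treated libraries alone, so its values are a description, and neither a fold nor a p is given for it. SNORD32A, SNORD34 and SNORD35A, which lie in other introns of RPL13A, were listed at 0 in all 30 libraries.

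SNORD17, a guide of large subunit rRNA methylation in an intron of SNX5, had values of 93.3, 105 and 55.1 RPKM in untreated HCT116 and 793, 981 and 567 RPKM in untreated Ramos cells. It was lower in HCT116 cells, with a log2 difference of -3.22 ± 0.283 (adjusted p = 2.68e-05). After 24 h with 2 μM Omomyc the HCT116 values were 162, 117 and 204 RPKM, all above the untreated ones. This was a rise of 0.94 ± 0.247 (adjusted p = 0.0225), which was lost without replicate 1 or 3 of the treated or replicate 3 of the untreated cells (adjusted p 0.0548 to 0.0635). Of 15 alternative settings, 6 lost this call. With 10 μM the values were 216, 242 and 82.7 RPKM at 6 h and 57.8, 71.7 and 110.9 RPKM at 24 h, neither past the threshold. The 6 h difference was 0.99 ± 0.418 (adjusted p = 0.109), and without the library that stands apart SNORD17 was higher by 1.48 ± 0.233 (adjusted p = 0.0013). In each of the 5 HCT116 groups SNORD17 was highest in the library in which SNORD3A was highest and lowest in the one in which SNORD3A was lowest. In Ramos cells after 24 h with 2.5 μM the values were 466, 514 and 435 RPKM, below the untreated ones with no overlap, and the difference was -0.70 ± 0.166 (adjusted p = 0.0522).

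SNORD97, a guide of tRNA methylation in EIF4G2, and SNORD10 and SNORD94, guides of U6 spliceosomal RNA methylation in EIF4A1 and PTCD3, followed. SNORD97 was at 21.3, 26.0 and 15.3 RPKM in untreated HCT116 cells, 36.3, 25.0 and 37.4 RPKM after 6 h and 47.3, 37.8 and 34.4 RPKM after 24 h with 2 μM. It rose by 0.65 ± 0.195 at 6 h (adjusted p = 0.021), where the lowest treated library lay within the untreated range, and by 0.94 ± 0.175 at 24 h (adjusted p = 0.00572), with no overlap. The 6 h call was lost without replicate 1 or 3 of the treated or replicate 3 of the untreated cells (adjusted p 0.0648 to 0.0767). Over all 15 alternative settings it was lost in 6. In Ramos libraries SNORD97 was listed at 0 in 8 of 15 and reached 5.49 RPKM in 1 untreated library. With 10 μM at 6 h, SNORD97 differed from untreated cells by 1.01 ± 0.452 (adjusted p = 0.127), and without the library that stands apart it was higher by 1.55 ± 0.238 (adjusted p = 0.00114). SNORD97 overlaps CTR9 on the other strand.

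SNORD10 was at 18.5, 29.01 and 21.6 RPKM in untreated HCT116 cells, 25.1, 13.0 and 27.4 RPKM after 6 h and 43.9, 36.5 and 29.3 RPKM after 24 h with 2 μM, and it was listed at 0 in all Ramos libraries. Its rise at 24 h was 0.66 ± 0.171 (adjusted p = 0.0215) against untreated cells and 0.78 ± 0.250 (adjusted p = 0.0331) against 6 h. Without replicate 1 of the treated or replicate 1 or 3 of the untreated cells the first was not past the threshold (adjusted p 0.0658 to 0.0717). The second was lost without replicate 1 or 2 at 24 h (adjusted p = 0.101 and 0.0743). Each of these calls was lost in 6 of 15 alternative settings. With 10 μM at 6 h, SNORD10 was at 36.5, 69.8 and 0 RPKM, a difference of -1.09 ± 1.63 (adjusted p = 0.642), and without the library that stands apart, the one listed at 0, it was higher by 1.14 ± 0.263 (adjusted p = 0.00773). SNORD94 was at 2.43, 3.03 and 0.918 RPKM in untreated HCT116 cells and fell to 0.925, 0.308 and 1.04 RPKM after 6 h with 2 μM. The groups overlapped, and the log2 difference of -1.02 ± 0.349 (adjusted p = 0.0375) was no longer past the threshold without any of 4 of the 6 libraries. Of 14 alternative settings, 9 lost this call. At 24 h, with 2.95, 1.59 and 2.57 RPKM, SNORD94 was higher than at 6 h by 1.22 ± 0.272 (adjusted p = 0.00772).

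The members of lowest level changed mostly at 6 h. SNORD89, in RNF149, was at 0.674, 0.405 and 0.441 RPKM in untreated HCT116 cells. After 6 h its values were 1.85, 1.11 and 1.24 RPKM with 2 μM (0.91 ± 0.195) and 2.26, 1.95 and 1.88 RPKM with 10 μM (1.34 ± 0.164), with no overlap. Its mean was 0.507 RPKM in untreated HCT116 and 0.0389 RPKM in Ramos cells, so it met the member rule through treated HCT116 libraries. These differences are therefore a description, and no p is given for them. SNORD15B, a guide of large subunit rRNA methylation in RPS3, was at 3.16, 2.37 and 2.93 RPKM in untreated cells and 4.79, 9.91 and 4.40 RPKM after 6 h with 10 μM, a rise of 0.97 ± 0.281 (adjusted p = 0.0362). SNORD91B, in TSR1, went from 0.346, 0.312 and 0.566 to 1.16, 0.836 and 1.45 RPKM in the same comparison, which is given as a description, since it passed the filter there through the treated libraries alone. The SNORD15B call was lost without any of the 3 untreated libraries, and in 5 of 15 alternative settings in all. Without the library that stands apart SNORD15B was higher by 1.17 ± 0.256 (adjusted p = 0.00612) at 10 μM and 6 h, and the SNORD89 difference was 1.38 ± 0.183. SNORD91A, from the same host, ranged from 0 to 2.67 RPKM over the 30 libraries and was not past the threshold in any comparison.

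**Figure D3:**
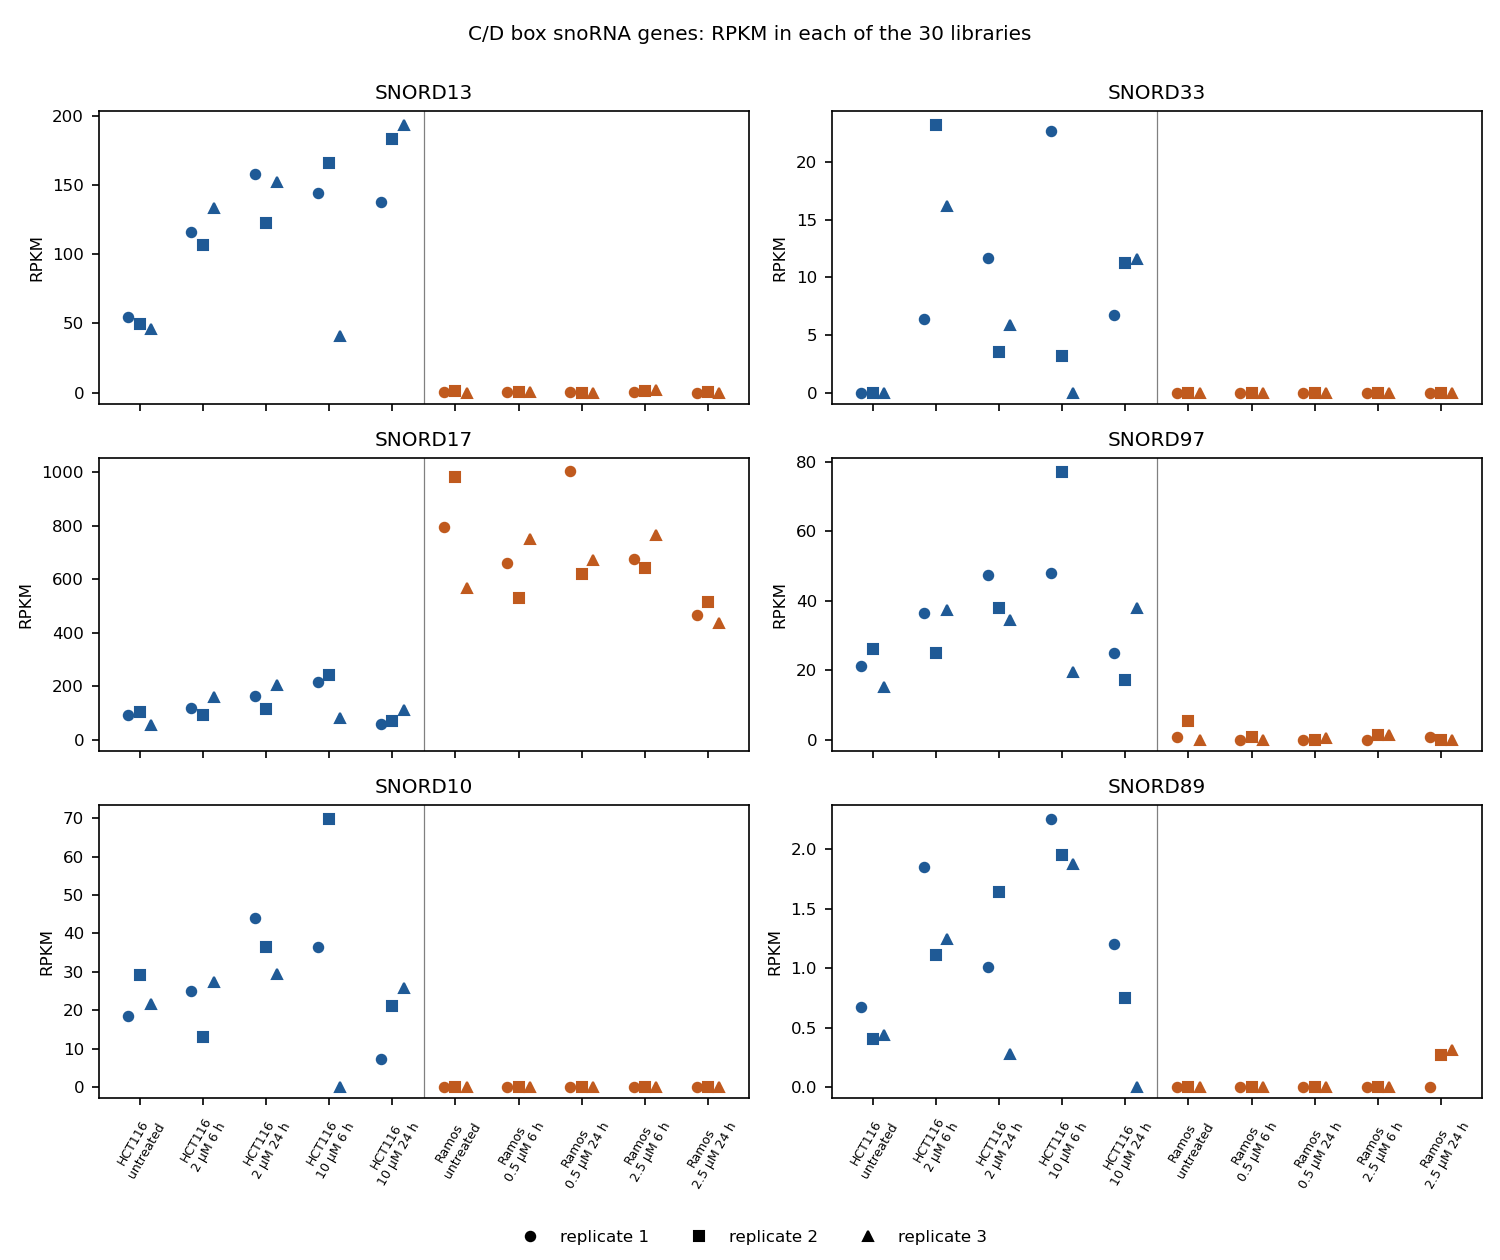
RPKM of SNORD13, SNORD33, SNORD17, SNORD97, SNORD10 and SNORD89 in each of the 30 libraries, by group, with the marker giving the replicate number and the colour the line. SNORD13 lies between 46.2 and 54.9 RPKM in untreated HCT116 cells and between 107 and 194 RPKM in 11 of the 12 treated HCT116 libraries, and SNORD33 is listed at 0 in all untreated and all Ramos libraries.

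Counted over the members in HCT116 cells, the share past the threshold was read against the share of all genes tested. After 24 h with 10 μM, 3 of 13 tested members were past it, 2 higher and 1 lower, against 35.2% of all genes (19.5% higher and 15.7% lower). After 24 h with 2 μM, 7 of 13 were past it, 6 higher and 1 lower, against 27.3% (16.6% higher and 10.8% lower). After 6 h with 10 μM, 3 of 14 were past it, all higher, against 30% (8.84% higher and 21.2% lower). After 6 h with 2 μM, 5 of 13 were past it, 4 higher and 1 lower, against 47.3% (15.5% higher and 31.8% lower). SNORD33, and at 10 μM and 6 h also SNORD91B, are in these counts although they passed the filter through the treated libraries alone. Among members at 0.5 RPKM or more in both groups the counts were 2 of 11, 6 of 12, 2 of 12 and 4 of 12. SNORD89, past the threshold at 6 h with either dose, remains in these counts although it met the member rule through treated HCT116 libraries. The median log2 difference of the tested members in these comparisons was -0.01, 0.47, 0.74 and -0.01, beside 0.02, 0.04, -0.11 and -0.12 over all genes. Rescaling to an equal sum of RPKM moved the split at 10 μM and 24 h to 2 higher and 4 lower, and that at 2 μM and 6 h to 3 higher and 4 lower, where median-ratio scaling gave 6 higher and 0 lower. Of all genes called, 20.43% and 6.76% were higher under an equal sum in these comparisons. Median-ratio scaling gave 51.89% higher at 2 μM and 6 h. The move of the split is therefore not read as a result about the members. Without the library that stands apart, 10 of 14 members were past the threshold at 10 μM and 6 h, all higher, SNORD33 and SNORD91B included. Of 14784 genes, 51.2% were past it in either direction. The share of higher genes without that library is not given here, so the direction is not read as a result about the members.

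In Ramos cells few members moved. After 24 h, 0 of 10 tested members were past limma's threshold with 2.5 μM, against 4.61% of all genes (3.3% higher and 1.31% lower), and 0 of 10 with 0.5 μM, against 0.0146% (0.0146% higher and 0% lower). Unadjusted, 2 and 0 members had a p under 0.05. After 6 h, 1 of 10 was lower with 2.5 μM, against 27.9% (17.3% higher and 10.7% lower), and 1 of 8 with 0.5 μM, against 23.6% (13.8% higher and 9.73% lower), in each case SNORD3B-1. The median log2 difference of the members was -0.36 and -0.09 at 24 h and -0.18 and -0.26 at 6 h, beside 0.05, 0.02, 0.03 and 0.02 over all genes. Without replicate 3 of the untreated cells, the calls rose to 3 (2.5 μM, 24 h), 4 (2.5 μM, 6 h) and 4 (0.5 μM, 6 h). The share of all genes called without that library is not given here, so these counts are not read as a result about the members.

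Between the times, 0 of 14 members were past limma's threshold with 10 μM, with 3 at an unadjusted p under 0.05, against 7.86% of all genes (5.8% higher at 24 h and 2.06% lower). Without the library that stands apart 5 of 14 were lower at 24 h than at 6 h, namely SNORD3A (-1.42), SNORD17 (-1.56), SNORD3C (-1.44), SNORD97 (-1.24) and SNORD10 (-1.64). Of all genes, 23.5% were past the threshold in either direction. The share of lower genes is not given here, so this count is not read as a result about the members. With 2 μM, 4 of 13 were higher at 24 h than at 6 h, namely SNORD3A, SNORD3C, SNORD10 and SNORD94, against 40.8% of all genes (30.9% higher and 9.85% lower). SNORD3C went from 130.3, 44.0 and 94.2 RPKM at 6 h to 217, 141 and 204 RPKM at 24 h, a difference of 1.17 ± 0.332 (adjusted p = 0.0208). This call was lost without replicate 1 or 3 at 24 h (adjusted p = 0.0599 and 0.0641), and in 4 of 15 alternative settings in all.

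**Figure D4:**
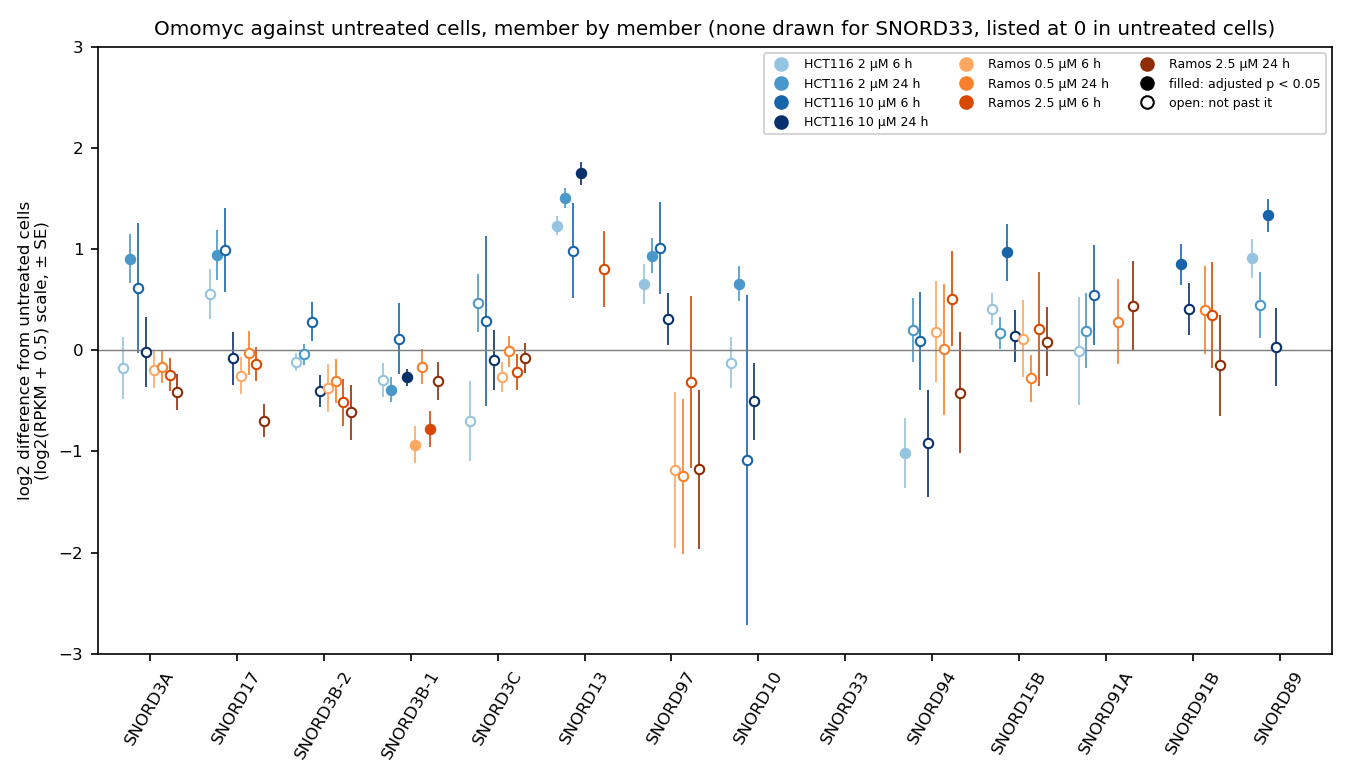
Log2 difference from untreated cells (± SE, log2(RPKM + 0.5) scale) of each tested member except SNORD33 in the 8 treated groups. Blue points are HCT116, orange points are Ramos and filled points are past an adjusted p of 0.05. SNORD33 is not drawn, since it was listed at 0 in untreated cells. SNORD13 lies above 0 in the HCT116 groups, with 3 of 4 points filled, and the filled Ramos points are those of SNORD3B-1.

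Among the 9 members with a mean of at least 0.5 RPKM in both lines and both untreated groups, 5 differed between untreated HCT116 and Ramos cells, 2 higher and 3 lower in HCT116 cells, against 84.6% of all genes (45.7% higher and 39% lower). The lower members were SNORD17, SNORD3B-1 and SNORD3B-2. The higher members were SNORD97 (3.77 ± 0.825, adjusted p = 0.00384) and SNORD15B (0.90 ± 0.178, adjusted p = 0.00234). SNORD97 was at 0.695, 5.49 and 0 RPKM in untreated Ramos cells and at 0 in 8 of the 15 Ramos libraries. Its place among the 9 thus rests largely on 1 library, and its difference is better read as a description. SNORD10, SNORD13, SNORD33 and SNORD89 had a mean under 0.5 RPKM in Ramos cells and are members through HCT116 cells alone, so their difference between the lines is a description with no test. With SNORD10, SNORD13 and SNORD91B, which was under 0.5 RPKM in untreated HCT116 cells, the count would be 7 of 12. SNORD13 was at 0.607, 0.911 and 0 RPKM in untreated Ramos cells. RNY3 was at 0 to 0.877 RPKM in the Ramos libraries.

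The effect of treatment was set against the line in an interaction model. At 6 h (2 μM in HCT116, 2.5 μM in Ramos cells), 0 of 10 members with a mean of at least 0.5 RPKM in both lines were past limma's threshold, against 40.6% of all genes (12.2% with a higher log2 difference in HCT116 and 28.4% with a lower one). At 24 h (10 μM and 2.5 μM) the count was also 0 of 10, against 22.5% (9.65% higher and 12.9% lower). The 10 include SNORD97, whose mean in Ramos cells rests largely on 1 untreated library. At an unadjusted p under 0.05 the counts over the 13 members tested were 1 and 2, which are the same genes that passed the adjusted threshold, SNORD33 at both times and SNORD13 at 24 h. Both are members through HCT116 cells alone. SNORD33 was at 0 in every Ramos library and SNORD13 was at 0, 0.595 and 0 RPKM after 24 h in Ramos cells, so a response of these genes in Ramos cells was not measurable. The doses differ between the lines, and so may the reagent, and these cannot be told apart from the line.

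Of the 14 members, 9 lie on the strand of and within a host gene in GENCODE 29, namely SNORD17 in SNX5 (endosomal sorting), SNORD97 in EIF4G2 and SNORD10 in EIF4A1 (translation initiation), SNORD33 in RPL13A and SNORD15B in RPS3 (ribosomal proteins), SNORD94 in PTCD3 (mitochondrial translation), SNORD91A and SNORD91B in TSR1 (small subunit assembly) and SNORD89 in RNF149 (a ubiquitin ligase). The 4 U3 genes and SNORD13 have none. Retained-intron transcripts of EIF4A1 and RPL13A have an exon that holds SNORD10 and SNORD33. A retained-intron transcript of EIF4G2 and a processed transcript of RNF149 have an exon that overlaps SNORD97 and SNORD89 in part. Reads from such transcripts may be shared with the snoRNA genes. For SNORD10, EIF4A1 was taken as the host, and SENP3-EIF4A1 and AC016876.2 also span it. For SNORD17, SNX5 was taken, and OVOL2 also spans it.

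For 2 μM at 24 h, SNORD17, SNORD97 and SNORD10 rose by 0.94, 0.94 and 0.66 while SNX5, EIF4G2 and EIF4A1 differed by 0.06 ± 0.0449, 0.04 ± 0.0614 and 0.02 ± 0.0437, none past the threshold. Of the genes that also span these members, OVOL2 (SNORD17) rose by 0.495 ± 0.154 (adjusted p = 0.0415) and AC016876.2 (SNORD10) by 0.643 ± 0.108 (adjusted p = 0.00384). SENP3-EIF4A1 differed by 0.125 ± 0.169 (adjusted p = 0.618). RPL13A, the host of SNORD33, fell by 0.20 ± 0.0648 on the log2 scale (adjusted p = 0.0451) in this group, and it differed by -0.23 ± 0.0811 with 10 μM at 24 h (adjusted p = 0.0521) and by -0.11 ± 0.0856 with 2 μM at 6 h (adjusted p = 0.318). With 2 μM at 6 h a pair moved together in 2 cases, SNORD97 with EIF4G2 (0.65 and 0.48, host adjusted p = 0.000783) and SNORD94 with PTCD3 (-1.02 and -0.24, host adjusted p = 0.0205). In that comparison 3 of 8 hosts and 47.3% of all genes tested were past the threshold. In other cases a host passed the threshold and its member did not. With 2 μM at 6 h TSR1 rose by 0.28 ± 0.0638 (adjusted p = 0.00613) where SNORD91A differed by -0.01, and with 10 μM at 24 h 3 of 8 hosts were past the threshold. Between 24 and 6 h with 2 μM, SNORD94 and PTCD3 were both higher (1.22 and 0.30), whereas EIF4G2 fell by 0.45 on the log2 scale and SNORD97 differed by 0.28.

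The sign of the log2 difference was shared by 4 of 8 members and their hosts with 10 μM at 24 h, 6 of 8 with 2 μM at 24 h, 6 of 9 with 10 μM at 6 h and 5 of 8 with 2 μM at 6 h. In Ramos cells it was shared by 3 of 6 and 4 of 6 at 24 h (2.5 and 0.5 μM) and by 2 of 5 and 2 of 4 at 6 h. Among the hosts taken, the largest absolute log2 difference against untreated cells was 0.48 in HCT116 and 0.34 in Ramos cells. AC016876.2, at a mean of 2.73 RPKM, was higher in the other HCT116 groups too. It rose by 0.629 (10 μM, 24 h, adjusted p = 0.00196), 0.906 (10 μM, 6 h, adjusted p = 0.00341) and 0.603 (2 μM, 6 h, adjusted p = 0.00352). SNORD10 differed there by -0.505, -1.085 and -0.122. In these groups OVOL2 was not past the threshold where it was tested. Between the untreated lines, 3 of 7 members with a tested host passed in the same direction as the host, namely SNORD17 with SNX5 (-3.22 and -0.92), SNORD97 with EIF4G2 (3.77 and 0.45) and, as a description, SNORD10, at 0 in Ramos cells, with EIF4A1. The sign was shared by 4 of 7 pairs. Between the lines 6 of 6 hosts and 84.6% of all genes tested were past the threshold, so the count is not read as a result about the pairs. SNORD15B and RPS3 differed in opposite directions (0.90 and -0.22). Rescaling to an equal sum of RPKM changed which hosts passed, and EIF4G2 was then not past the threshold at 2 μM and 6 h.

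**Figure D5:**
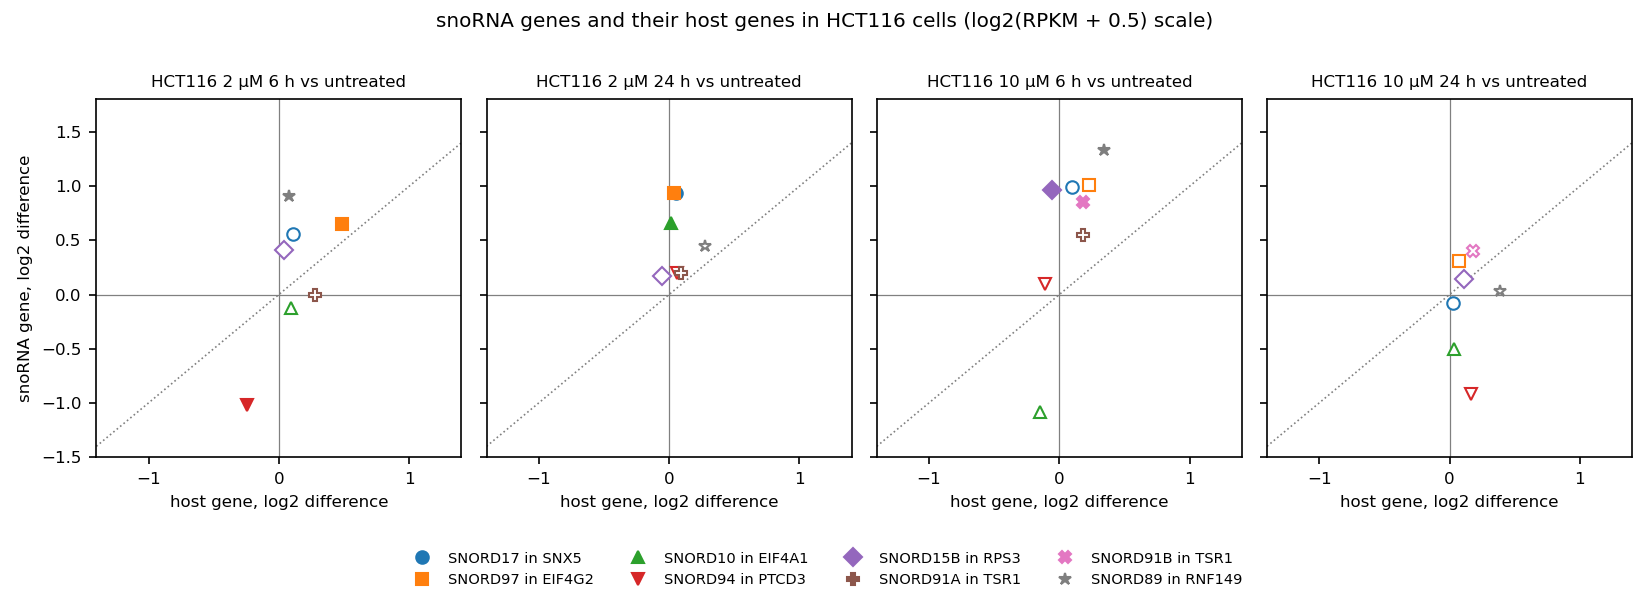
Log2 difference from untreated HCT116 cells of each snoRNA gene (y) and of its host gene (x) in the 4 treated groups, on the log2(RPKM + 0.5) scale, with filled markers for snoRNA genes past the threshold and the dotted line where both are equal. The hosts taken lie within 0.48 of 0, and snoRNA genes between -1.09 and 1.34 (SNORD33 is not drawn, since it was listed at 0 in untreated cells). AC016876.2, SENP3-EIF4A1 and OVOL2, which also span members, are not drawn. The filled SNORD91B and SNORD89 markers give no test.

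The RNA of genes that encode proteins of the same particle was followed in 4 lists. These were 4 genes of core snoRNP proteins (FBL, NOP56, NOP58, SNU13), 8 of assembly factors, 4 of U3-specific proteins (IMP3, IMP4, MPHOSPH10, RRP9) and 7 of processing factors. Protein was not measured here, so a factor said to rise or fall did so in the RNA of its gene. In HCT116 cells given 2 μM, 3 of 4 core and 3 of 4 U3-specific genes rose at 6 h, and 1 of each did at 24 h. Of all genes, 15.5% and 16.6% rose. With 10 μM, 1 of 4 core genes rose at each time, and 1 of 4 U3-specific genes at 6 h and 2 at 24 h. Of all genes, 8.84% and 19.5% rose. Counts of 1 among 4 are not read as a result about a list. NOP56, part of the core, rose in all 4 HCT116 groups, by 0.65 ± 0.0655 (2 μM, 6 h), 0.32 ± 0.0395 (2 μM, 24 h), 0.78 ± 0.129 (10 μM, 6 h) and 0.47 ± 0.0491 (10 μM, 24 h). Under an equal sum of RPKM the NOP56 calls at 2 μM and 24 h and at 10 μM and 6 h were lost. In that setting 0 of 4 U3-specific genes rose in any HCT116 group, and MPHOSPH10 was lower at 2 μM and 24 h. Of all genes called under that scaling, between 4.28% and 23.04% were higher in the HCT116 groups.

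XRN1 and XRN2, exonucleases of which XRN2 trims snoRNA ends, fell in all 4 HCT116 groups under each of the 3 scalings, where with 2 μM XRN2 fell by 0.51 ± 0.0613 at 6 h and 0.20 ± 0.0507 at 24 h on the log2 scale. Of the 7 processing factors, 2 fell in each HCT116 group, XRN1 and XRN2, and 0 or 1 rose, where 31.8% (2 μM, 6 h), 10.8% (2 μM, 24 h), 21.2% (10 μM, 6 h) and 15.7% (10 μM, 24 h) of all genes fell. Among the assembly factors 1 or 2 of 8 rose in each HCT116 group and up to 2 fell, where under an equal sum of RPKM up to 5 fell. The 5 were at 10 μM and 6 h, where 4.28% of all genes called were higher under that scaling. In Ramos cells FBL, the methyltransferase of the particle, rose by 0.56 ± 0.059 (2.5 μM, 24 h), 0.46 ± 0.073 (2.5 μM, 6 h) and 0.29 ± 0.061 (0.5 μM, 6 h), and these calls held in all 3 scalings. After 6 h 3 of 4 U3-specific genes rose with 2.5 μM and 2 of 4 with 0.5 μM, where 17.3% and 13.8% of all genes rose. After 24 h 2 of 4 rose with 2.5 μM, where 3.3% of all genes did. At 6 h 2 of 7 processing factors rose with each dose, EXOSC10 and UBTF, and XRN2 fell with 2.5 μM, while median-ratio scaling left 0 rising with 0.5 μM. In the group given 0.5 μM for 24 h none of the listed genes passed limma's threshold. Under an equal sum of RPKM, 4 of 4 core and 3 of 4 U3-specific genes rose at 2.5 μM and 24 h. In that setting 97.37% of all genes called were higher, and the median log2 difference of all genes was 0.24. These counts are therefore not read as a result about the lists. Of the snoRNA members, 0 rose past limma's threshold in the Ramos groups, and those with an unadjusted p under 0.05 (0 to 2 in each group) were all lower than in untreated cells.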

How the data were processed

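RNA-Seq libraries of HCT116 and Ramos cells (30 libraries, 10 groups of 3) were made from total RNA with a stranded kit that removes rRNA. The authors deposited RPKM for 57992 Ensembl gene identifiers; the submitters' processing notes name RSEM without a version, and the aligner, build, annotation and strand setting are not given in the sources used here. Depth is unknown, so precision rests on the replicates. Symbols, positions and sequences came from GENCODE 29 (GRCh38) by Ensembl identifier (57388 matched, 604 did not). A further 36 genes have a SNORD symbol only in a newer table, and 0 of them reached a mean of 0.5 RPKM.

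Log2(RPKM + 0.5) was fitted with limma 3.58.1 in R 4.3.3 (lmFit, eBayes with trend, two-sided) on the libraries compared and genes with a mean of at least 0.5 RPKM over them. P-values were Benjamini-Hochberg adjusted over all genes tested, and genes were called at an adjusted p under 0.05. Of 13 comparisons, 8 set treated against untreated cells, 2 set 24 h against 6 h, 1 set the lines against each other and 2 tested the interaction of line and treatment. Some members passed a filter through only 1 of the groups compared, or are members through only 1 line where lines are compared. They were described with no p, except for the flagged SNORD13 interaction, whose p is printed with its limits. Counts are given with and without such members. SNORD89, which met the member rule through treated HCT116 libraries, was also described with no p but stays in the counts. The procedure was tested on simulated data. A host is a gene of another type whose span holds the member on the same strand. The genes named are all members, the 3 SNORD genes just below the minimum, SNORD118 and the SNORD14 genes, their hosts and the protein lists.

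Alternatives were pseudocounts of 0.1 and 1, no filter, a mean of at least 2 RPKM, median-ratio scaling, an equal sum of RPKM, eBayes without trend, a replicate block, a single fit over every group of the line (of both lines where lines are compared) and leaving out each library. The summed U3 genes, the member values without the library that stands apart the scaling of the protein lists and the counts without members that passed through 1 group were added after seeing the data. The members and lists were chosen with earlier results of these data known.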

Additional observations from a re-analysis of the deposited data

Results flagged for a closer look

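SNORD13 was past limma's threshold in the interaction of line and treatment at 24 h (HCT116 at 10 μM, Ramos at 2.5 μM), with 2.25 ± 0.519 on the log2 scale (adjusted p = 0.0103), and with a pseudocount of 0.1 it was 2.88 and not past it (adjusted p = 0.122). SNORD13 is a member through HCT116 cells alone, and its values in Ramos cells were 0 to 0.911 RPKM untreated and 0 to 0.595 RPKM after 24 h. A response in Ramos cells was not measurable at this level, so the value does not show that the lines respond differently. The line, the dose and the delivery reagent cannot be told apart.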

How the results depend on the processing

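Of 525 pairs of a called member and an alternative setting, 442 stayed past the threshold in the same direction, 83 did not, and 0 reversed. SNORD13 kept its call under each of 15 settings in the 3 HCT116 comparisons in which it was called. The counts include SNORD33 and SNORD91B where they passed a filter through the treated libraries alone, which gives them no test. They also include SNORD89, which met the member rule through treated HCT116 libraries. Members past the threshold numbered as follows where the count moved by over 1.5 times, and the cause was not tested. For these settings, and for single libraries left out, the share of all genes called is not given here. The counts thus show how far the calls depend on the setting and are not read as a result about the members. With no filter on low values they numbered 2 at 2 μM and 24 h (7 as reported), 1 at 10 μM and 6 h (3), 3 at 2 μM and 6 h (5), 0 in both Ramos groups at 6 h (1 each), 0 between times at 2 μM (4) and 2 in the 6 h interaction (1). With a single fit over every group of the line they numbered 2 at 2 μM and 24 h, 6 at 10 μM and 6 h, 2 at 2 μM and 6 h, 1 at 2.5 μM and 24 h in Ramos cells (0), 3 between times at 10 μM (0) and 0 between times at 2 μM. Without the trend, 3 were called at 2 μM and 24 h. A mean of at least 2 RPKM gave 1 at 10 μM and 6 h, 3 at 2 μM and 6 h and 1 at 2.5 μM and 24 h in Ramos cells. An equal sum of RPKM gave 6 at 10 μM and 24 h (3), 7 between times at 2 μM, 1 at 2.5 μM and 24 h in Ramos cells and 3 in the 6 h interaction, and it shifted the median of all genes from -0.558 (10 μM, 6 h) to 0.65 (between lines). A pseudocount of 0.1 gave 1 in the 24 h interaction (2).

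Same-numbered libraries did not deviate together (correlations from -0.22 to 0.15), so the numbers were not taken to pair the samples. With the replicate block 5 members were called at 10 μM and 6 h and 1 at 2.5 μM and 24 h in Ramos cells.

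Leaving out single libraries gave 2 to 3 calls at 10 μM and 24 h, 3 to 7 at 2 μM and 24 h, 1 to 10 at 10 μM and 6 h, 3 to 6 at 2 μM and 6 h, 0 to 3 (2.5 μM, 24 h), 0 to 0 (0.5 μM, 24 h), 0 to 4 (2.5 μM, 6 h) and 1 to 4 (0.5 μM, 6 h) in Ramos cells, 0 to 5 and 3 to 5 between times at 10 and 2 μM, 7 to 9 between lines, 1 to 4 in the 6 h and 2 to 2 in the 24 h interaction. The libraries that moved a count by over 1.5 times were replicate 3 of 10 μM and 6 h (10 and 5), replicates 1 and 2 of untreated HCT116 cells (1 each at 10 μM and 6 h), replicate 1 of 2 μM and 24 h (3), replicates 1 and 3 of untreated cells at 2 μM and 24 h (4 and 3), replicate 1 of 2 μM and 6 h (3), replicate 3 of untreated Ramos cells (3, 4 and 4, and 4 in the 6 h interaction), replicates 1 and 2 of 2.5 μM and 6 h (0 and 2) and, in the 6 h interaction, each other Ramos library (2). The number of reads is unknown, and single U3 genes are limited by their shared sequence.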

Other observations

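Over the 10 groups, the median log2 level of the members was between 3.65 and 4.05 in HCT116 and between 0.42 and 0.86 in Ramos cells. This gap depends on the rule that chose the members, since SNORD10, SNORD13, SNORD33 and SNORD89 are members through HCT116 cells alone. It is not a measure of the class, and SNORD17, SNORD3B-1 and SNORD3B-2 were lower in untreated HCT116 than in untreated Ramos cells. The genes whose group means followed the member median most closely among 15616 genes were CBY1, C5orf22, AIF1L, ADAP2 and YWHAE, a likeness set by the line, since the groups form a cluster per line.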
